A study of Mus musculus with 11 samples.

Results

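The small intestine of mice labelled HLJDD was compared with that of mice labelled ND by RNA sequencing. The 4 HLJDD libraries and the 3 ND libraries were taken from a series of 11 libraries, and 10528 of the 24294 gene symbols were compared, those with at least 1 FPKM in at least 3 of these 7 libraries. FPKM is the number of fragments of a gene per kilobase of its length and scaled to the size of the library. The series also holds 4 libraries labelled HFD, which appear here only beside HLJDD genes. HLJDD has the initials of Huang Lian Jiedu Decoction, a herbal preparation of Coptis, Scutellaria, Phellodendron and Gardenia that the series title names with obese mice, lipid metabolism and the gut hormone gastric inhibitory polypeptide. The labels do not spell out ND or HFD and give no strain, age, sex, dose or length of treatment. They also do not say which diet the HLJDD mice ate, so the decoction and the diet cannot be told apart in a comparison with ND. The stretch of small intestine is not stated. Nothing in the labels says that the libraries came from separate animals, and the p-values then cover no more than library-to-library spread, which may be technical.

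The lining of the small intestine changes from the duodenum to the ileum. Enterocytes of the upper stretch take up fat, folate and retinol and pack fat into chylomicrons, while those of the ileum take back bile acids. Goblet, Paneth, tuft and hormone-secreting cells lie between the enterocytes. The same epithelium presents antigen on MHC class II molecules and keeps interferon-stimulated and microbe-induced defence genes at a steady level in contact with gut bacteria. Cholesterol synthesis in these cells is set by SREBP2, a transcription factor that sterols hold back.

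Reads in genes, recovered from the steps in the FPKM values, numbered 30100481 to 37940645 in the 7 libraries, so a transcript of 1 kb at 1 FPKM rested on 30.1 to 37.9 reads. Transcripts of the mitochondrial genome took 40.7% of the reads in HLJDD replicate 2 and 10.4% to 14.4% in the other 6 libraries. Because such a share lowers the deposited FPKM of every other gene, each library was divided by 1 factor (0.741 for HLJDD replicate 2, 0.943 to 1.12 for the other 6), and levels below are scaled FPKM unless stated. A change is the HLJDD mean minus the ND mean on the log2(scaled FPKM + 1) scale, which understates the change of low genes, and is given with the standard error (SE) and the Benjamini-Hochberg adjusted p of limma. On the first principal component, with 68.4% of the variance, ND ran from -42.6 to -22.3 and HLJDD from 13.2 to 39.4. On the second (16.3%) HLJDD replicate 2 stood at -34.1 and the other 6 between 0.5 and 10.7. Vil1, which encodes villin of the gut epithelium's microvilli, was abundant in every library, at 742 to 933 FPKM in ND and 776 to 955 FPKM in HLJDD. It was not called (log2 change 0.05, SE 0.14, adjusted p = 0.81), and the sign of this change flipped as deposited.

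In all, 1091 of 10528 genes were higher in HLJDD (10.4%) and 1099 were lower (10.4%) at an adjusted p under 0.05. Of these, 1074 higher and 1094 lower genes had HLJDD libraries that did not overlap the ND libraries. Over all 10528 genes, called or not, 1794 were higher and 1939 lower without overlap. Nearly every called gene lacked overlap, so a lack of overlap adds little to a call. On the FPKM as deposited, the split was 451 higher and 846 lower, and the median log2 change of all genes was -0.13 in place of 0.02. Without ND replicate 2 the counts were 233 and 373, without ND replicate 1 they were 333 and 479, without HLJDD replicate 1 they were 436 and 568, and without HLJDD replicate 4 they were 605 and 680. A gene seen in 1 group alone could pass the expression filter, and the gene lists were written with earlier results of these data known. Counts over list members that passed the filter are therefore descriptions. In a bulk sample, fewer cells of a type and less RNA per cell cannot be told apart.

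**Figure D1:**
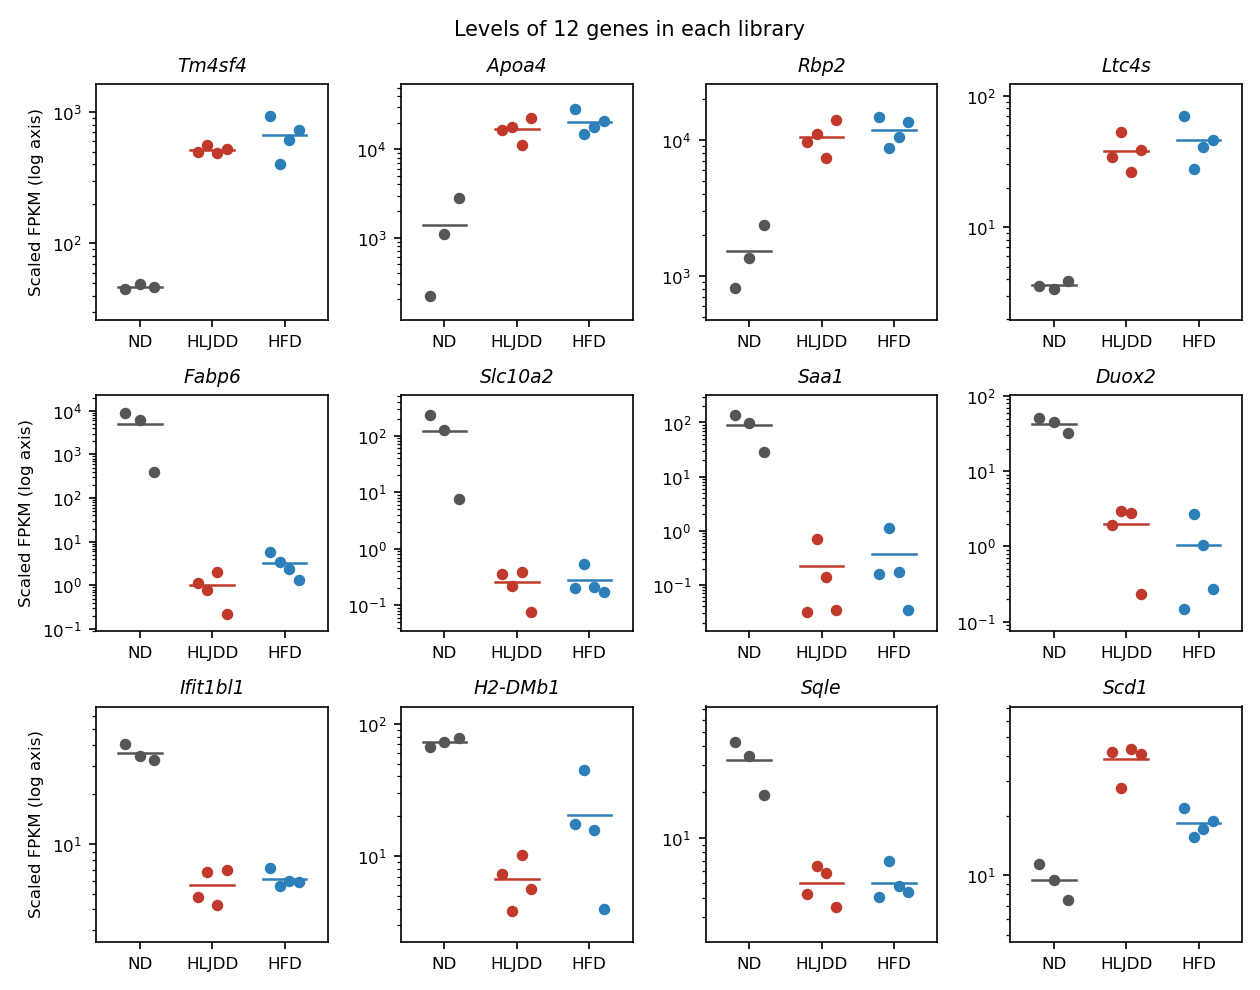
Scaled FPKM (log axis) of 12 genes in each library, with 3 ND, 4 HLJDD and 4 HFD libraries as points and the group mean as a line. Tm4sf4 sits at 45.2 to 48.9 in ND and at 488 to 562 in HLJDD, and Fabp6 at 395 to 8783 in ND and at 0.225 to 2.04 in HLJDD.

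Of the 12 largest rises, that of Tm4sf4 had the smallest SE. Tm4sf4 is a tetraspanin-like membrane protein gene (chromosome 3, 57425410 to 57441677 of GRCm38.p6, the build of all positions here). Its level was 45.2, 48.9 and 46.7 FPKM in ND and 496, 562, 488 and 526 FPKM in HLJDD. The lowest HLJDD library lay far above the highest ND library, and the means differed 11.03-fold (log2 change 3.43, SE 0.11, adjusted p = 9.1e-06). Apoa4, the apolipoprotein of chylomicrons (chromosome 9, 46240844 to 46243458), stood at 219, 1087 and 2823 FPKM in ND and at 16410, 17930, 11220 and 23020 FPKM in HLJDD. The ND libraries themselves spanned 12.9-fold for Apoa4 against 1.08-fold for Tm4sf4, yet neither gene overlapped between groups (Apoa4 log2 change 4.24, SE 0.75, adjusted p = 0.00931).

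Enpp3, an ectoenzyme that splits extracellular nucleotides, led all rises by size, from 1.61, 7.81 and 20.0 FPKM in ND to 209, 154, 86.3 and 341 FPKM in HLJDD (log2 change 4.49, SE 0.70, adjusted p = 0.00609). Nt5e, the CD73 ectonucleotidase, rose 14.4-fold (log2 change 3.55, SE 0.41, adjusted p = 0.00226). Slc46a1, the intestinal folate transporter, rose 17.2-fold (log2 change 3.73, SE 0.52, adjusted p = 0.00441). Adh1, an alcohol and retinol dehydrogenase, rose 12.8-fold, Aadac, an esterase of the endoplasmic reticulum, 9.28-fold, and Bbox1, the last enzyme of carnitine synthesis, 31.0-fold (adjusted p = 0.00654, 0.00418 and 0.0031). In all of these genes ND replicate 3 was the ND library nearest to HLJDD. Ada, adenosine deaminase, stood at 7.19 to 59.8 FPKM in ND and 129 to 762 FPKM in HLJDD (log2 change 4.04, adjusted p = 0.0117), and was no longer called when ND replicate 2 was left out (0.0511). Sult6b2 (log2 change 4.37) and Reg1 (4.07) were also among the 12 largest rises, with HLJDD libraries of 3.5 to 160 FPKM and 19.7 to 531 FPKM. Neither passed with ND replicate 1 (adjusted p = 0.125 and 0.0859), ND replicate 2 (0.127 and 0.087) or HLJDD replicate 1 (0.0983 and 0.0619) left out, and the call of Sult6b2 was lost also without ND replicate 3 (0.0805) or HLJDD replicate 4 (0.0651). By limma-voom on recovered reads neither passed (0.31 and 0.0626), and with all 11 libraries in the fit Sult6b2 did not (0.0633). Reg1 is also a pancreatic acinar marker.

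Genes listed for the proximal small intestine were mostly higher and genes listed for the distal small intestine mostly lower in HLJDD. Both lists were written with earlier results of these data known, so their counts describe the members chosen. Of all 10528 genes, 10.4% were called higher and 10.4% lower. Of 19 genes listed for the proximal small intestine, 16 passed the filter, 10 rose and 1 fell, with a median log2 change of 1.49. Of 19 listed for the distal small intestine, 16 passed, 12 fell and 0 rose, with a median of -1.77, beside 0.02 over all genes. The summed level of the proximal list was 1364 to 7220 FPKM in ND and 16060 to 32640 FPKM in HLJDD, and that of the distal list was 2940 to 12630 FPKM and 571 to 1285 FPKM. Without ND replicate 2 the calls were 4 proximal and 7 distal, and without HLJDD replicate 1 the proximal calls were 5. The stretch of gut that was sampled and the group cannot be told apart here, and the part of gut region in the results below was not tested.

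**Figure D2:**
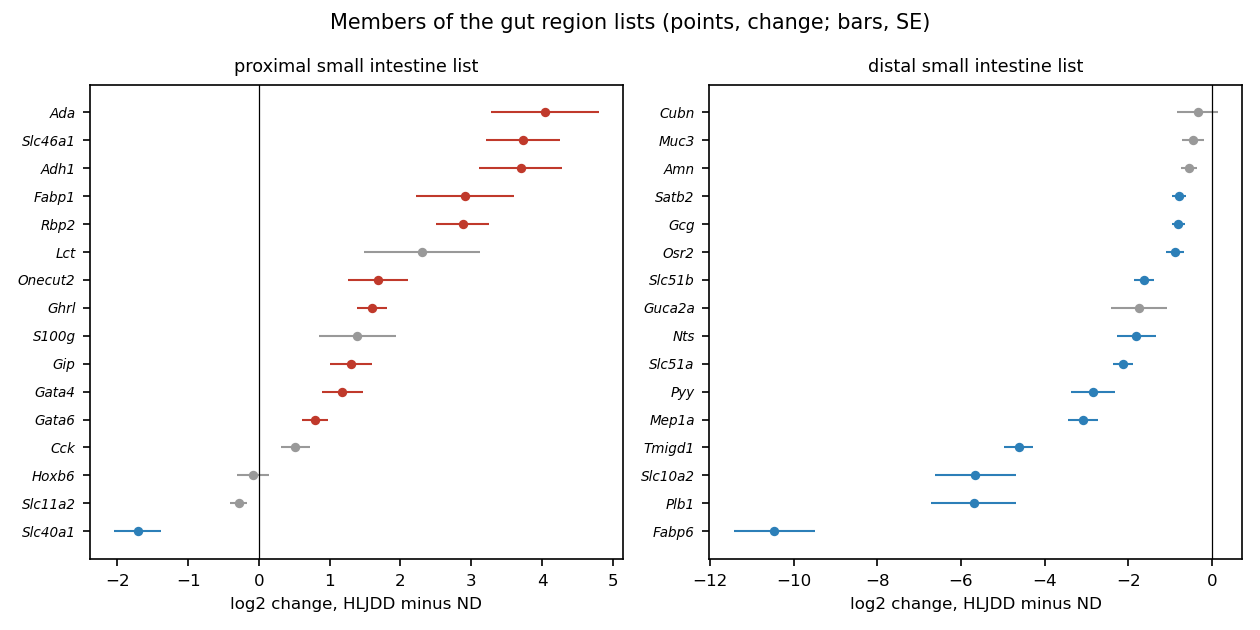
Log2 change of each member of the proximal and distal small intestine lists that passed the filter (points, HLJDD minus ND) with its SE (bars); red is higher, blue lower and grey not called. Fabp6 lies at -10.47, and Slc40a1 at -1.71 is the proximal member that fell.

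Among the proximal genes, Rbp2, which carries retinol inside enterocytes, went up from 817, 1352 and 2377 FPKM to 9666, 10910, 7275 and 13960 FPKM (log2 change 2.88, SE 0.37, adjusted p = 0.00318). Fabp1, a fatty acid carrier, stood at 426 to 4369 FPKM in ND and 7524 to 15570 FPKM in HLJDD (log2 change 2.92, SE 0.69, adjusted p = 0.0235). Fabp1 dropped out of the called genes without ND replicate 2 (0.0801), HLJDD replicate 1 (0.0586) or HLJDD replicate 4 (0.0581). The exception was Slc40a1, the iron exporter ferroportin, at 9.04, 6.38 and 2.41 FPKM in ND and 0.749 to 1.45 FPKM in HLJDD (log2 change -1.71, adjusted p = 0.0128), which was not called without ND replicate 2 (0.0634). Slc40a1 was therefore at its highest in the ND library with the lowest Rbp2.

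The largest fall among the genes named here was in a bile acid gene. Fabp6, the bile acid carrier of ileal enterocytes (chromosome 11, 43596040 to 43601562), stood at 8783, 6034 and 395 FPKM in ND and at 1.13, 0.791, 2.04 and 0.225 FPKM in HLJDD (log2 change -10.47, SE 0.97, adjusted p = 0.00128). ND replicate 3 held 22.2-fold less than ND replicate 1 and still lay above every HLJDD library. Slc10a2, the transporter that takes bile acids up from the gut, showed the same order, with 229, 127 and 7.67 FPKM in ND and 0.0773 to 0.388 FPKM in HLJDD (log2 change -5.66, SE 0.97, adjusted p = 0.00828).

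The genes of bile acid export from the enterocyte fell less. Slc51a and Slc51b, the subunits of that exporter, fell by 2.13 (SE 0.23, adjusted p = 0.00222) and 1.62 (SE 0.24, adjusted p = 0.00542) on the log2 scale. Nr1h4, the bile acid receptor FXR, stood at 38.6, 36.0 and 22.6 FPKM in ND and 8.30 to 10.7 FPKM in HLJDD (log2 change -1.66, SE 0.19, adjusted p = 0.00222). Of 9 listed bile acid genes that passed the filter, these 5 fell, also in each fit that left out 1 library, and 2 rose. One riser was Slco2b1, an uptake carrier of organic anions, at 3.61 to 3.79 FPKM in ND and 8.05 to 9.50 FPKM in HLJDD (log2 change 1.02, SE 0.08, adjusted p = 0.000921). The other was Nr0b2, the repressor SHP that FXR is known to induce, at 0.0209 to 0.238 FPKM and 1.05 to 7.13 FPKM (log2 change 2.20, adjusted p = 0.0144). Nr0b2 was not called without ND replicate 1 (adjusted p = 0.0538) or ND replicate 2 (0.0608), or by limma-voom on recovered reads (0.0602), and it was picked out here after its values were seen.

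Other genes of the distal list fell as well. Tmigd1, an adhesion protein of the enterocyte surface, stood at 739, 524 and 310 FPKM in ND and 11.7 to 29.0 FPKM in HLJDD (log2 change -4.62, SE 0.35, adjusted p = 0.000762). Plb1, a brush border phospholipase, stood at 146, 187 and 265 FPKM in ND and at 9.24, 0.0487, 16.3 and 0.0572 FPKM in HLJDD (log2 change -5.70, SE 1.01, adjusted p = 0.00951). Plb1 split the HLJDD libraries, with replicates 2 and 4 near 0 and replicates 1 and 3 well above it, and in ND it ran in the opposite order to Fabp6. Mep1a, a brush border metalloprotease, fell 8.33-fold (log2 change -3.08, SE 0.36, adjusted p = 0.00227). Outside the distal list, Mgat4c, a glycosyltransferase, fell 18.9-fold (log2 change -4.12, SE 0.59, adjusted p = 0.00473). Fam151a (log2 change -4.23, adjusted p = 0.0233) and Suox, sulfite oxidase (-3.72, 0.0179), also outside the distal list, were among the 12 largest falls. Neither passed with ND replicate 1 (0.074 and 0.0683) or ND replicate 2 (0.0848 and 0.0802) left out, nor did Fam151a without ND replicate 3 (0.0572).

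Hormone genes split along the same lines. Ghrl, which encodes ghrelin, rose from 2.81, 1.81 and 3.48 FPKM in ND to 8.28, 12.5, 7.83 and 12.2 FPKM in HLJDD (log2 change 1.60, SE 0.21, adjusted p = 0.00342). Gip, the K cell hormone gene that the series title concerns (chromosome 11, 96024532 to 96030831), stood at 16.9, 27.8 and 48.1 FPKM in ND and at 70.8, 68.2, 79.8 and 67.3 FPKM in HLJDD (log2 change 1.30, SE 0.29, adjusted p = 0.0206). The HLJDD libraries were close together and the ND libraries were not, and Gip missed the threshold without ND replicate 2 (adjusted p = 0.0813) or HLJDD replicate 1 (0.0548), with equal sums per library (0.0586) and with no filter (0.0613).

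The L cell genes were lower. Pyy, peptide YY, stood at 22.2 to 40.0 FPKM in ND and 0.768 to 9.37 FPKM in HLJDD (log2 change -2.85, SE 0.52, adjusted p = 0.0108). Gcg, the proglucagon gene, stood at 7.88 to 12.1 and 4.60 to 6.32 FPKM (log2 change -0.80, SE 0.15, adjusted p = 0.0118). Nts, neurotensin, fell 3.12-fold (log2 change -1.81, SE 0.47, adjusted p = 0.0311), and Pcsk1, the prohormone convertase, 2.28-fold (log2 change -0.79, SE 0.12, adjusted p = 0.00651). Without ND replicate 2, Pyy (adjusted p = 0.0512), Gcg (0.0607) and Nts (0.102) were not called, and without ND replicate 1 Pyy (0.0512) and Nts (0.114) were not. Gcg was also lost with all 11 libraries in the fit (0.181) and with a replicate block (0.0667). Nts was also lost without ND replicate 3 (0.0508) or HLJDD replicate 1 (0.0636). Cck, Sct and Sst, for cholecystokinin, secretin and somatostatin, overlapped between groups and did not pass (log2 changes 0.51, -0.19 and -0.11, adjusted p = 0.113, 0.561 and 0.643). Without HLJDD replicate 2, Cck was called higher (log2 change 0.68, adjusted p = 0.0188) and Sct lower (-0.40, 0.0288). Of 18 hormone and granule genes that passed the filter, 3 rose and 6 fell, with 1 and 1 called without ND replicate 2, 2 fallers without ND replicate 1, and 1 riser and 3 fallers without HLJDD replicate 1.

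In fat handling, 9 of 26 genes of fat absorption and chylomicron assembly rose and 1 fell, with a median log2 change of 0.41. Acsl3, an acyl-CoA synthetase, rose from 4.49, 5.13 and 5.04 FPKM to 16.9, 17.3, 13.9 and 23.0 FPKM (log2 change 1.65, SE 0.15, adjusted p = 0.00128). Clps, the colipase that helps pancreatic lipase, rose from 1.66 to 2.10 FPKM in ND to 5.64 to 9.13 FPKM in HLJDD (log2 change 1.47, SE 0.15, adjusted p = 0.00157). Clps is also a pancreatic acinar marker, and 6 of the 7 acinar genes that passed the filter rose (Clps, Pnliprp2, Zg16, Reg1, Cela1 and Sycn), with 0 lower and a median log2 change of 1.46. Their summed level was 561 to 1256 FPKM in ND and 2167 to 3607 FPKM in HLJDD, of which Zg16, also a goblet cell gene, made up 542 to 1230 FPKM and 2017 to 3497 FPKM. The acinar enzyme genes Cpa1, Cpb1, Ctrb1, Pnlip and Cel were below the filter, and the part of acinar cells in these results was not tested. The acinar risers numbered 2 without ND replicate 1 or ND replicate 2, 3 without HLJDD replicate 1, 2 with no filter and 4 as deposited. Plin2, a lipid droplet coat gene, was 2.35-fold higher (adjusted p = 0.0153) and was not called without ND replicate 1 (0.0657) or ND replicate 2 (0.0658), with a replicate block (0.0642) or with equal sums per library (0.085). The member that fell was Naaladl1, a peptidase gene, 3.82-fold (adjusted p = 0.0173), not called without ND replicate 1 (0.0688) or ND replicate 2 (0.0731). The list's risers numbered 3 without ND replicate 2, 4 without ND replicate 1 or HLJDD replicate 1, and 5 without HLJDD replicate 4.

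Fatty acid oxidation, ketone synthesis and targets of the receptor PPAR-alpha had 10 of 32 members higher and 1 lower (median log2 change 0.35). Among the risers was Bbox1, already named for carnitine synthesis, at 0.0975, 0.472 and 1.11 FPKM in ND and at 17.1, 14.0, 6.88 and 31.3 FPKM in HLJDD (log2 change 3.43, SE 0.44, adjusted p = 0.0031). The list member that fell was Vnn1, the pantetheinase vanin, from 226, 246 and 310 FPKM to 52.7, 58.5, 74.0 and 32.6 FPKM (log2 change -2.29, SE 0.26, adjusted p = 0.00222). As deposited, 5 members rose, and without ND replicate 1 or ND replicate 2, 2 did, with 3 without HLJDD replicate 1 and 4 without HLJDD replicate 4.

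The stearoyl-CoA desaturases, which make monounsaturated fatty acids, moved in opposite directions. Scd1 (chromosome 19, 44394450 to 44407709) stood at 11.4, 9.44 and 7.50 FPKM in ND and at 41.8, 27.5, 43.4 and 41.1 FPKM in HLJDD (log2 change 1.91, SE 0.19, adjusted p = 0.00157). Scd2 stood at 28.0, 27.1 and 28.5 FPKM in ND and at 6.20, 3.39, 10.1 and 2.15 FPKM in HLJDD (log2 change -2.32, SE 0.38, adjusted p = 0.00713). Neither gene overlapped between groups, and the directions of both held as deposited and with the other scalings. Elovl1 and Elovl5, which lengthen fatty acids, fell by 0.84 (SE 0.08, adjusted p = 0.00139) and 0.94 (SE 0.15, adjusted p = 0.00687). Srebf1, the regulator of fatty acid synthesis genes, was 3.63-fold higher (adjusted p = 0.0163) and lost its call without ND replicate 1 (0.0703) or ND replicate 2 (0.0666). Of 15 members of the fatty acid synthesis list that passed, 3 rose and 5 fell, with 1 and 3 called without ND replicate 1 or ND replicate 2.

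Cholesterol synthesis genes and other SREBP2 targets were lower, with 20 of 26 called lower, 0 higher and a median log2 change of -0.78. Their summed level was 632 to 774 FPKM in ND and 381 to 420 FPKM in HLJDD. Sqle, squalene epoxidase (chromosome 15, 59315092 to 59331193), stood at 43.0, 34.7 and 19.1 FPKM in ND and at 4.26, 6.54, 5.84 and 3.48 FPKM in HLJDD (log2 change -2.42, SE 0.28, adjusted p = 0.00227). All 4 HLJDD libraries of Sqle were below all 3 ND libraries.

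Tm7sf2, a sterol reductase, fell 2.58-fold (log2 change -1.22, SE 0.16, adjusted p = 0.00318), and Idi1, an isomerase of the isoprenoid steps, fell 4.66-fold (log2 change -1.82, SE 0.29, adjusted p = 0.00624). Without ND replicate 2 the list had 8 calls, without ND replicate 1 it had 12 and without HLJDD replicate 1 it had 13. The 26 genes had a RefSeq promoter window (GRCm38.p6, 250 bases before to 50 after the start) in 18 cases. The core TCACNCCAC of the sterol regulatory element, searched on both strands, was in 1 of those 18 (5.6%), against 1.42% of the 8392 tested genes with a window. That gene is Hmgcs1, an early enzyme of the pathway, which stood at 103, 69.3 and 47.8 FPKM in ND and 19.8 to 34.8 FPKM in HLJDD (log2 change -1.47, adjusted p = 0.0111), and was not called without ND replicate 2 (0.0516). The stretch around it (chr13:119690184-119690252, plus strand) is shown since it alone of the 18 holds the core, in capitals.
Hmgcs1: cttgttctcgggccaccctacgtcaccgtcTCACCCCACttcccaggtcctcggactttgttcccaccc

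Interferon-stimulated genes, the antiviral genes that interferon signalling induces, were mostly lower. Of 37 found in the files, 34 passed the filter, 27 fell and 0 rose, with a median log2 change of -1.09 beside 0.02 over all genes. The other 7 were not called, and 3 members had a positive change, the largest in Ifi27l2a (log2 change 1.09, adjusted p = 0.0923). Zbp1, a sensor of Z-form nucleic acid (chromosome 2, 173206612 to 173218959), stood at 24.9, 25.6 and 26.1 FPKM in ND and at 2.41, 5.68, 2.63 and 2.86 FPKM in HLJDD (log2 change -2.65, SE 0.22, adjusted p = 0.000921). Ifit1bl1, of the IFIT family of antiviral RNA-binding proteins, stood at 40.8, 34.3 and 32.4 FPKM in ND and at 4.77, 6.71, 4.24 and 6.92 FPKM in HLJDD (log2 change -2.48, SE 0.17, adjusted p = 0.000594). Both were even within ND, unlike the ileal genes, and clear of every HLJDD library.

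Herc6, an ISG15 ligase gene, fell from 7.01 to 9.42 FPKM in ND to 1.09 to 1.70 FPKM in HLJDD (log2 change -1.92, SE 0.12, adjusted p = 0.000594). Ifi44 fell 7.95-fold (log2 change -1.74, SE 0.17, adjusted p = 0.00152). The count of 27 ranged from 22 without ND replicate 2 to 28 without HLJDD replicate 2, and was 28 as deposited and 24 with a replicate block. Reads of near-identical copies in the Ifit and Oas families could have been divided among members or merged, as could those of the Reg and H2 families below, so the level of any 1 member is uncertain.

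The core GAAANNGAA of the interferon-stimulated response element, searched on both strands, was in the promoter window of 14 of the 24 list members with a window (58.3%), against 8.45% of the 8392 tested genes and 8.56% of all 32851 windows. Of the 20 members with a window that fell, 13 held it, and of the 4 others, 1 did. Stretches of these windows are shown for 3 members that fell, chosen after their values were seen, with 1 core of each in capitals. They lie at chr19:34602122-34602190 for Ifit1bl1, chr12:26456533-26456601 for Rsad2 and chr5:120907526-120907575 for Oas1a, all on the minus strand of GRCm38.p6.
Ifit1bl1: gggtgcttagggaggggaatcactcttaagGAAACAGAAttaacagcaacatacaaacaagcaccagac
Rsad2: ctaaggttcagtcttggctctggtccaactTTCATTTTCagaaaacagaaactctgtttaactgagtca
Oas1a: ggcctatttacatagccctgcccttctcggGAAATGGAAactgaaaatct
The core of Rsad2 reads on the other strand. Rsad2, the antiviral radical SAM enzyme viperin, fell 4.97-fold (log2 change -1.20, SE 0.19, adjusted p = 0.00703), and Oas1a, a sensor of double-stranded RNA, 3.78-fold (log2 change -1.77, SE 0.20, adjusted p = 0.00222).

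**Figure D3:**
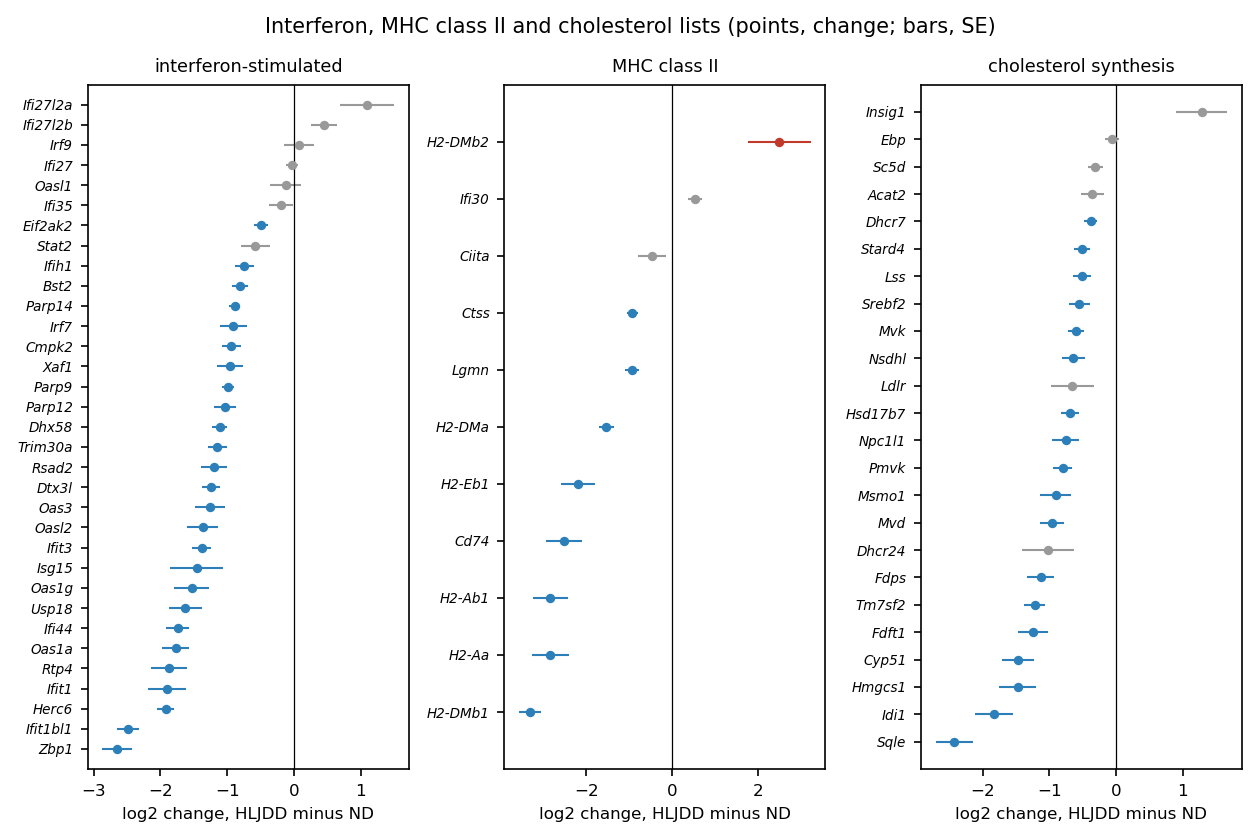
Log2 change (points, HLJDD minus ND) with SE (bars) of the members of the interferon-stimulated, MHC class II and cholesterol lists that passed the filter and are reported here; blue is lower, red higher and grey not called. Zbp1 (-2.65), H2-DMb1 (-3.31) and Sqle (-2.42) are the lowest of each list, and H2-DMb2 (2.48) is the only red point.

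Genes that interferon-gamma induces and MHC class I genes had 16 of 26 members lower and 0 higher (median log2 change -0.61). The other 10 were not called, among them the class I genes H2-K1 (log2 change -0.11, adjusted p = 0.609), H2-T3 (-0.12, 0.67) and B2m (-0.27, 0.263). Irf1 (-0.22, 0.364) was not called either, while the class I gene H2-D1 was lower (-0.52, 0.0255). Socs1, the feedback inhibitor of cytokine signalling, stood at 2.71, 3.02 and 3.62 FPKM in ND and 0.449 to 0.884 FPKM in HLJDD (log2 change -1.32, SE 0.12, adjusted p = 0.00128). The immunity-related GTPases Irgm2, Igtp and Irgm1, which act on membranes around intracellular microbes, fell 5.23-fold (adjusted p = 0.00108), 3.99-fold (0.00196) and 2.90-fold (0.00248). Tap1, a peptide pump of class I loading, stood at 24.1 to 25.0 FPKM in ND and 8.13 to 13.8 FPKM in HLJDD (log2 change -1.10, SE 0.16, adjusted p = 0.00491). Socs1, Irgm2, Igtp, Irgm1 and Tap1 were called without each library in turn. The list's count of lower members was 6 without ND replicate 2, 8 without HLJDD replicate 1, and 10 without ND replicate 1 or HLJDD replicate 4.

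MHC class II presentation genes fell further. H2-DMb1, a chain of the editor that loads peptide (chromosome 17, 34153191 to 34160229), stood at 67.0, 72.6 and 77.6 FPKM in ND and at 7.32, 3.88, 10.2 and 5.59 FPKM in HLJDD (log2 change -3.31, SE 0.25, adjusted p = 0.000762). The class II chains H2-Aa and H2-Ab1 fell 6.43-fold (log2 change -2.83, SE 0.43, adjusted p = 0.00561) and 6.49-fold (log2 change -2.83, SE 0.41, adjusted p = 0.00503). Cd74, the invariant chain, stood at 859, 972 and 1160 FPKM in ND and at 233, 73.5, 267 and 191 FPKM in HLJDD (log2 change -2.52, SE 0.41, adjusted p = 0.00713). H2-DMa (log2 change -1.53, adjusted p = 0.00226) and Ctss, the protease cathepsin S (-0.92, 0.00318), fell less. Of 11 members, 8 fell (7 without ND replicate 2) and 1 rose.

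The riser was H2-DMb2, the neighbouring copy of H2-DMb1, at 0.234, 0.383 and 0.190 FPKM in ND and at 10.1, 0.413, 10.7 and 12.6 FPKM in HLJDD (log2 change 2.48, adjusted p = 0.0471). HLJDD replicate 2 stayed at the ND level. The B cell receptor genes Cd79a and Cd79b showed the same libraries high, with Cd79a at 0.748 to 1.32 FPKM in ND and at 45.1, 2.95, 43.8 and 42.0 FPKM in HLJDD (log2 change 3.61, adjusted p = 0.0212) and Cd79b at 0.631 to 0.969 and at 22.9, 1.68, 25.1 and 21.3 FPKM (2.96, 0.0289). Without ND replicate 1, ND replicate 2, ND replicate 3, HLJDD replicate 1 or HLJDD replicate 4, none of the 3 was called (adjusted p = 0.0506 to 0.135), and H2-DMb2 and Cd79b were also lost without HLJDD replicate 3 (0.0843 and 0.0522). H2-DMb2, Cd79a and Cd79b also missed the threshold by limma-voom on recovered reads (0.155, 0.115 and 0.109) and with all 11 libraries in the fit (0.11, 0.0643 and 0.107).

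Of 15 B follicle and plasma cell genes that passed the filter, 14 had a positive change, 6 rose and 1 fell, and their summed level was 69.5 to 90.2 FPKM in ND and 166 to 319 FPKM in HLJDD. Without HLJDD replicate 2, 13 rose, without ND replicate 1, ND replicate 2 or HLJDD replicate 1, 0 did by limma, and without ND replicate 3 or HLJDD replicate 4, 2 did. The risers numbered 2 by limma-voom, 1 with all 11 libraries in the fit, 0 with no filter and 13 with equal sums per library. Tnfrsf13b and Mzb1, of B and plasma cells, rose 19.1-fold (adjusted p = 0.0184) and 7.97-fold (0.0228), but neither passed once ND replicate 1 (0.0677 and 0.0769), ND replicate 2 (0.0739 and 0.092) or HLJDD replicate 1 (0.0545 and 0.0612) was left out, nor Mzb1 without HLJDD replicate 4 (0.0537). The member that fell was Sdc1, syndecan 1, which epithelium also makes (log2 change -0.97, SE 0.16, adjusted p = 0.00738). The part of B cells in the class II results was not tested.

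Epithelial defence genes that microbes are known to induce were lower. Saa1, an acute phase protein (chromosome 7, 46740497 to 46743181), stood at 138, 98.5 and 28.7 FPKM in ND and at 0.0316, 0.704, 0.143 and 0.0347 FPKM in HLJDD (log2 change -5.95, SE 0.48, adjusted p = 0.000921). Duox2, the dual oxidase that makes hydrogen peroxide (chromosome 2, 122279246 to 122298740), stood at 50.5, 45.2 and 32.1 FPKM in ND and at 1.93, 3.00, 2.81 and 0.236 FPKM in HLJDD (log2 change -3.98, SE 0.39, adjusted p = 0.00159). Its maturation factor Duoxa2 fell 18.1-fold (log2 change -4.24, SE 0.60, adjusted p = 0.00441). Every HLJDD library of these 3 lay below every ND library.

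Nos2, the inducible nitric oxide synthase, stood at 24.7, 30.4 and 45.3 FPKM in ND and at 0.609, 4.55, 1.37 and 0.0401 FPKM in HLJDD (log2 change -3.95, SE 0.51, adjusted p = 0.00318). Tifa, an adaptor in the response to bacterial sugars, stood at 48.4 to 52.4 FPKM in ND and 4.40 to 12.8 FPKM in HLJDD (log2 change -2.37, SE 0.31, adjusted p = 0.00318). Of 12 listed members that passed, 7 fell and 0 rose, with a median log2 change of -2.65, and at least 5 fell in each fit that left out 1 library.

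The Reg lectins, some of which bind bacteria, did not move together: of 6, 3 rose and 2 fell. Reg3b and Reg3g were at 16180, 17360 and 19750 FPKM and at 7720, 8134 and 9113 FPKM in ND, and at 2770, 3830, 4983 and 531 FPKM and at 877, 1549, 1592 and 129 FPKM in HLJDD (log2 changes -2.94 and -3.51, adjusted p = 0.0233 and 0.0217). HLJDD replicate 4 was the lowest in both. Neither call held without ND replicate 1 (adjusted p = 0.0772 and 0.0745), ND replicate 2 (0.0851 and 0.081), ND replicate 3 (0.0547 and 0.0506) or HLJDD replicate 1 (0.0552 and 0.0525), nor with all 11 libraries in the fit (0.104 and 0.0708). Reg4 rose from 6.831 to 8.501 FPKM in ND to 31.1 to 93.3 FPKM in HLJDD (log2 change 2.71, SE 0.32, adjusted p = 0.00226), and Reg3a from 138 to 218 FPKM to 352 to 670 FPKM (log2 change 1.55, SE 0.24, adjusted p = 0.0062).

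**Figure D4:**
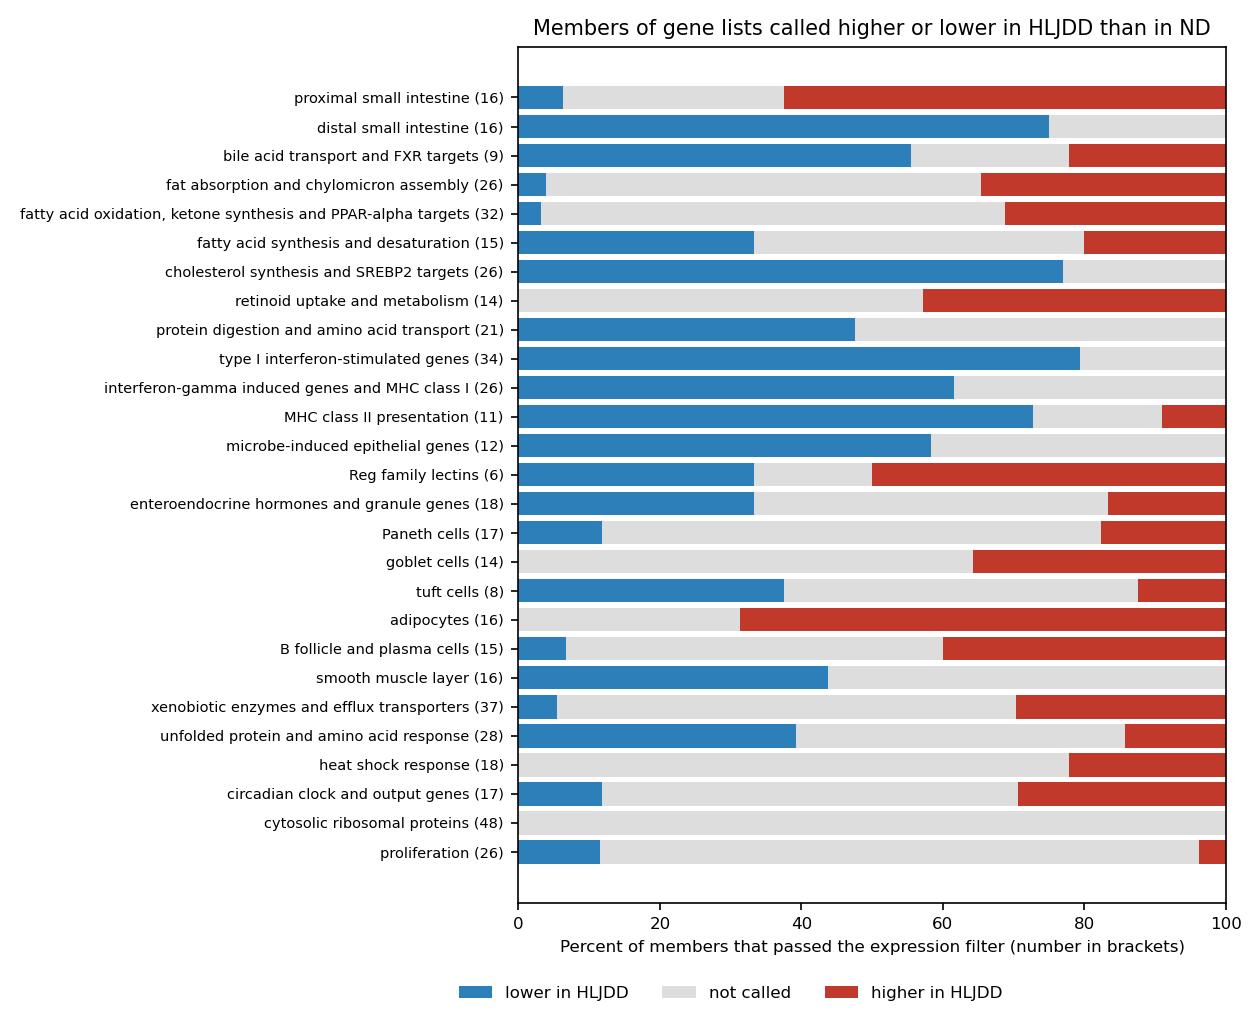
Percent of the members of each gene list that passed the filter (number in brackets) called lower (blue), higher (red) or not called (grey) in HLJDD against ND. Of all 10528 genes, 10.4% were higher and 10.4% lower; blue fills most of the interferon-stimulated (27 of 34) and cholesterol (20 of 26) bars and red most of the adipocyte bar (11 of 16). Not every list is drawn, the pancreatic acinar list among those left out.

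Markers of other cell types were counted beside the 10.4% of all genes called higher and the 10.4% called lower. The 1 riser of 8 tuft genes and the 2 fallers of 17 Paneth genes below are near those shares. Among tuft cell genes, Ltc4s, leukotriene C4 synthase (chromosome 11, 50236461 to 50238532), rose from 3.58, 3.40 and 3.89 FPKM to 34.2, 52.6, 26.5 and 38.6 FPKM (log2 change 3.04, SE 0.20, adjusted p = 0.000594). The tuft cell ion channel gene Trpm5 fell 2.04-fold (log2 change -0.58, SE 0.09, adjusted p = 0.00593), and Sucnr1, the succinate receptor of these cells, 2.84-fold (log2 change -0.68, SE 0.11, adjusted p = 0.00672). Both lost their calls with a replicate block (adjusted p = 0.0578 and 0.0619). Avil, a tuft cell cytoskeleton gene, fell 1.57-fold (adjusted p = 0.0338), and its call was lost in 5 of the 7 fits that left out a library, without ND replicate 1 (0.123), ND replicate 2 (0.13), HLJDD replicate 1 (0.0703), HLJDD replicate 3 (0.0638) or HLJDD replicate 4 (0.0787). Of 8 tuft genes that passed, 1 rose and 3 fell.

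Of 14 goblet cell genes, 5 rose and 0 fell (median log2 change 0.43). Klk1, a kallikrein, rose from 5.75 to 6.33 FPKM to 10.1 to 17.6 FPKM (log2 change 1.06, SE 0.16, adjusted p = 0.0055). Zg16 and Fcgbp, of the mucus layer, rose 2.86-fold and 2.09-fold (adjusted p = 0.0137 and 0.0179), but missed the threshold with ND replicate 1 (0.0503 and 0.0607) or ND replicate 2 (0.0644 and 0.0761) left out. Muc2, the mucin itself, had 8.84 to 14.4 FPKM in ND and 14.3 to 17.0 FPKM in HLJDD and did not pass (adjusted p = 0.0542), though it did without ND replicate 3 (0.00948). The list's calls were 1 without ND replicate 1 or ND replicate 2 and 3 without HLJDD replicate 4, and 2 with equal sums per library, where Fcgbp was not called (0.0534), and 1 with no filter. Zg16 is also a pancreatic acinar marker.

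Of 17 Paneth cell genes that passed, 3 rose and 2 fell, with 11 fallers without HLJDD replicate 2 and 0 by limma without ND replicate 1, ND replicate 2 or HLJDD replicate 1. Lyz1, the lysozyme of Paneth granules, stood at 32.5, 31.0 and 29.3 FPKM in ND and at 26.2, 80.8, 31.3 and 23.1 FPKM in HLJDD. HLJDD replicate 2 was high and the groups overlapped (log2 change 0.18, adjusted p = 0.755), and the sign flipped without that library (-0.21) and with equal sums per library (-0.09). The 3 risers were Guca2b, a guanylin family peptide gene, and a pair from the pancreatic acinar list, Pnliprp2 and Clps. The 2 fallers were the defensins Defa21 and Defa34, whose reads near-identical family copies may share.

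Of 16 adipocyte genes, 11 rose and 0 fell (median log2 change 1.29), with 7 called without ND replicate 2. Adipoq, the fat cell hormone adiponectin (chromosome 16, 23146536 to 23157968), stood at 1.83, 1.55 and 1.15 FPKM in ND and at 12.9, 27.0, 13.6 and 7.60 FPKM in HLJDD (log2 change 2.57, SE 0.34, adjusted p = 0.00347). Lep, leptin, stood at 0.0329 to 0.0905 FPKM in ND and 1.76 to 5.72 FPKM in HLJDD (log2 change 2.02, SE 0.26, adjusted p = 0.00318). Lpl, lipoprotein lipase, rose 10.5-fold (log2 change 2.75, SE 0.40, adjusted p = 0.00489), Plin1, a fat cell droplet coat gene, 12.05-fold (log2 change 1.28, SE 0.14, adjusted p = 0.00222), and Pparg, the fat cell regulator that epithelium also makes, 3.17-fold (log2 change 1.29, SE 0.16, adjusted p = 0.00304). All 4 HLJDD libraries lay above all 3 ND libraries for these 5 genes.

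Of 16 smooth muscle genes, 7 fell and 0 rose, with 1 fall as deposited, 0 by limma without ND replicate 1, ND replicate 2 or HLJDD replicate 4, 1 without HLJDD replicate 1 and 2 without HLJDD replicate 2. Actg2, the enteric actin, was 2.07-fold lower (adjusted p = 0.0212), and was lost without ND replicate 1 (0.0814), ND replicate 2 (0.0849) or HLJDD replicate 4 (0.0503). The summed level of the muscle list was 807 to 991 FPKM in ND and 439 to 754 FPKM in HLJDD.

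Nutrient and drug handling followed. In the retinoid list, 6 of 14 members rose and 0 fell (median log2 change 0.87): besides Rbp2 and Adh1, Adh4, another alcohol dehydrogenase, rose from 0.511 to 1.00 FPKM to 6.92 to 35.2 FPKM (log2 change 3.08, SE 0.51, adjusted p = 0.00758) and Rdh7, a retinol dehydrogenase, 3.86-fold (log2 change 1.998, SE 0.34, adjusted p = 0.00814). Protein digestion and amino acid transport had 10 of 21 lower and 0 higher (median log2 change -0.60). Slc7a9, a cystine carrier of the brush border, stood at 133, 137 and 136 FPKM in ND and at 75.1, 71.5, 80.6 and 75.1 FPKM in HLJDD (log2 change -0.83, SE 0.09, adjusted p = 0.00222), with little spread in either group. Slc1a1, the glutamate carrier, fell 5.08-fold (log2 change -2.20, SE 0.29, adjusted p = 0.00343). Without ND replicate 2 this list had 3 calls, without ND replicate 1 it had 5, and without ND replicate 3 or HLJDD replicate 1 it had 6.

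Of 37 xenobiotic enzymes and efflux transporters, 11 rose and 2 fell (median log2 change 0.40). Gsta1, a glutathione transferase, rose from 19.6, 24.4 and 31.4 FPKM to 209, 206, 91.9 and 362 FPKM (log2 change 2.93, SE 0.41, adjusted p = 0.00422). Nr1i3, the xenobiotic receptor CAR, rose 3.33-fold (log2 change 1.71, SE 0.30, adjusted p = 0.0088). The fallers were Cyp2c55, a cytochrome P450, from 65.1, 66.3 and 85.2 FPKM to 10.2, 7.97, 12.4 and 6.35 FPKM (log2 change -2.86, SE 0.21, adjusted p = 0.000594), and Abcg2, an efflux pump, 2.61-fold (log2 change -1.35, SE 0.14, adjusted p = 0.00207). As deposited 6 rose, and the risers numbered 3 without ND replicate 2, 5 without ND replicate 1, 6 without HLJDD replicate 1 and 7 without HLJDD replicate 4.

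Among nucleotide genes, Slc28a2, a purine nucleoside carrier, rose 6.13-fold (log2 change 2.68, SE 0.48, adjusted p = 0.00949), while Upp1, uridine phosphorylase, fell from 94.5 to 108 FPKM to 36.3 to 42.7 FPKM (log2 change -1.35, SE 0.11, adjusted p = 0.000921). Cldn4, a tight junction protein, rose 6.18-fold (log2 change 2.53, SE 0.26, adjusted p = 0.00196). Slc34a2, a phosphate carrier, fell 4-fold (log2 change -1.998, SE 0.23, adjusted p = 0.00226), and Gsr, glutathione reductase, 3.55-fold (log2 change -1.85, SE 0.22, adjusted p = 0.00248).

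Stress and clock lists were counted as well, beside the 10.4% of all genes called higher and the 10.4% called lower. Of 18 heat shock genes that passed the filter, 4 rose and 0 fell, with 1 riser as deposited and 0 with equal sums per library. Of 17 clock and output genes, 5 rose and 2 fell. That was 2 and 2 as deposited, 1 and 1 with equal sums per library, and 3 and 0 without ND replicate 1. In the unfolded protein and amino acid response, 11 of 28 fell and 4 rose, but 4 fell and 0 rose as deposited. Without ND replicate 1, 3 fell and 1 rose, and without ND replicate 2, 2 fell and 0 rose. The fallers numbered 5 without ND replicate 3, 4 without HLJDD replicate 1 (with 0 risers) and 6 without HLJDD replicate 4 (with 2 risers). Dnajb9, a chaperone of the endoplasmic reticulum, stood at 77.9 to 98.3 FPKM in ND and 35.4 to 40.1 FPKM in HLJDD (log2 change -1.24, SE 0.11, adjusted p = 0.00123). Hsph1, a cytosolic heat shock chaperone, rose from 2.91 to 3.54 FPKM to 5.94 to 7.08 FPKM (log2 change 0.81, SE 0.09, adjusted p = 0.00222), though with equal sums per library it was not called (0.124). The clock genes Per3 and Dbp rose 3.01-fold (log2 change 0.88, SE 0.12, adjusted p = 0.00379) and 2.27-fold (log2 change 1.10, SE 0.20, adjusted p = 0.00955), the latter not called as deposited (0.0646), and the time of sampling is not given in the labels.

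The HFD libraries were set beside these genes, in a fit of all 11 libraries. HFD replicate 1 had 32.4% mitochondrial reads and 31840378 reads, against 12.7% to 19.3% and 33754529 to 37264678 in the other 3 HFD libraries. Of the same 10528 genes, limma called 0 higher in HLJDD than in HFD (0%) and 0 lower (0%), while 549 had an unadjusted p under 0.05 (182 as deposited, 567 by limma-voom on recovered reads, which also called 0). That number was 1039 without HLJDD replicate 2, 1061 without HFD replicate 4 and 323 without HLJDD replicate 1, and 0 genes passed adjustment in each. Where no gene differs, an unadjusted p under 0.05 is expected for a share of 0.05 of the genes. The 549 of 10528 is near that share, while 1039 and 1061 lie above it and 323 and 182 below it. The comparison with HFD and that with ND share the HLJDD libraries. Tm4sf4 stood at 402 to 928 FPKM in HFD beside 488 to 562 FPKM in HLJDD, Fabp6 at 1.36 to 5.92 beside 0.225 to 2.04 FPKM, Sqle at 4.09 to 7.05 beside 3.48 to 6.54 FPKM, and Ifit1bl1 at 5.54 to 7.15 beside 4.24 to 6.92 FPKM. For these 4 genes the HFD range overlapped that of HLJDD and not that of ND.

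Gip, Scd1, Plin1 and Lep had HFD libraries apart from HLJDD, without an adjusted call. How many of all 10528 genes had HFD libraries apart from HLJDD was not counted. Groups this small can lie apart where no gene differs, so the separation cannot be called particular to these genes. Gip stood at 107 to 116 FPKM in HFD, above the 67.3 to 79.8 FPKM of HLJDD (HLJDD minus HFD -0.63, SE 0.24, unadjusted p = 0.0219). Scd1 stood at 15.5 to 21.8 FPKM in HFD, between ND and HLJDD (HLJDD minus HFD 1.01, unadjusted p = 7.2e-05). Plin1 was at 0.0209 to 0.846 FPKM in HFD, below the 1.40 to 2.41 FPKM of HLJDD (0.89, unadjusted p = 0.000378), and Lep at 0.278 to 1.24 FPKM, below 1.76 to 5.72 FPKM (1.17, unadjusted p = 0.000666). Igtp ran at 4.67, 37.6, 16.0 and 5.44 FPKM in the 4 HFD libraries and at 2.82 to 5.88 FPKM in HLJDD (HLJDD minus HFD -1.32, unadjusted p = 0.0237). HFD replicates 2 and 3 were the high libraries, and HFD replicates 1 and 4 lay inside the HLJDD range.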

How the data were processed

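Total RNA of mouse small intestine was sequenced in 11 libraries. Per the submitters' processing notes, the authors used fastp, HISAT2, HTSeq and R 3.2.0 with the mm10 genome; the sources used here do not name the annotation, the strand setting or other versions. The labels' protocols name TRIzol for the extraction. The authors deposited FPKM, per the file headers. Undoing the FPKM steps gave whole reads, to within 0.01 reads, for 100.0% of the 24294 symbols (largest distance 0.0017). The median-ratio factors were computed over the 7 libraries, with a geometric mean of 1. Genes with at least 1 deposited FPKM in at least 3 of 7 libraries were kept. The test was limma 3.58.1 in R 4.3.3 on log2(scaled FPKM + 1), two-sided, with a variance trend and no covariate, adjusted by Benjamini-Hochberg at 0.05, and was tested on simulated data. HLJDD against HFD used 1 fit of all 11 libraries with factors over 11. No count test was a main result; limma-voom on recovered reads, an alternative, called 1127 genes higher and 1180 lower.

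Groups came from the titles. Whether replicate numbers pair the samples is not known, and the main test used no pairing. The deviations of same-numbered ND and HLJDD libraries from their group means correlated by 0.03, -0.048 and -0.272. Those of other pairs ran from -0.317 to 0.31. With so few libraries, centred within each group, these values cannot decide whether the samples were paired. Genes named were the 12 largest rises and 12 largest falls among called, non-overlapping genes (leaving out unnamed models, pseudogenes and receptor segments), up to 5 called members per list with the smallest adjusted p, 8 hormone genes and defining markers; Nr0b2, H2-DMb2, Cd79b, Slc40a1, Fabp1, Cd74, Rsad2, Oas1a, Hmgcs1, Alpi, Vil1, Muc2, Actg2 and Lyz1 were added after their values were seen. Some genes that passed the rule are not reported here by name, and counts over lists include them. The members and the gene lists were chosen with earlier results of these data known. Promoter windows and positions come from RefSeq tables of GRCm38.p6, the assembly of mm10. Alternatives were other scalings, pseudocounts (0.1), filters (none, or a mean of at least 5 FPKM), library weights, robust variance, a replicate block, all 11 libraries in the fit, limma-voom and leaving out each library.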

Additional observations from a re-analysis of the deposited data

Results flagged for a closer look

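In the HLJDD group, 1 library stood apart from the other 3 in 15 of the 129 values screened, by the gap of the extreme library over the range of the group, which chance passes in about 1 of 20 groups of 4. In each of the 15 it was HLJDD replicate 2. It had 40.7% mitochondrial reads and the lowest total, 30100481 recovered reads, where the nearest HLJDD library had 12.9% and 36915669. Its scaled FPKM was low for Cd79a (2.95, next 42.0), Cd79b (1.68, next 21.3), Scd1 (27.55, next 41.1) and Dbp (21.1, next 35.1). It was high for Saa1 (0.704, next 0.143), Sct (64.7, next 38.2), Lyz1 (80.75, next 31.31), Slc51b (271.4, next 169.1), Zbp1 (5.68, next 2.86), Ifi44 (0.853, next 0.434), Slc40a1 (1.45, next 0.803), Zg16 (3497, next 2161) and Fcgbp (153.5, next 110.1). Without this library 1368 genes were higher and 1274 lower, and of 121 called genes followed by name 1 lost its call.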

How the results depend on the processing

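The 1091 higher and 1099 lower genes of HLJDD against ND became 451 higher as deposited, with 846 lower, and 336 and 661 with equal sums per library (TPM). With no filter they were 572 and 821, and with a mean of at least 5 FPKM 660 and 726, over 6145 genes. Library weights by limma's default method, which did not reach its convergence tolerance and gave weights from 3.55e-07 to 623, called 1938 and 1737; the gene-by-gene method, added after seeing the data, called 3548 and 3031. A replicate block called 274 and 340, and whether the replicate numbers pair the samples is not known. Leaving out 1 library gave 233 to 1368 higher and 373 to 1274 lower. HLJDD against HFD gave 0 and 0 as deposited, with the block, by limma-voom and in every fit that left out 1 library. The share of higher among called genes was 49.8% on scaled values, 34.8% as deposited, 33.7% with equal sums, 41.1% with no filter, 38.4% without ND replicate 2 and 53.9% with gene-by-gene weights. Of 2190 called genes, 579 were called in every fit that left out 1 library and 415 in every alternative but the mean filter; of 121 called genes followed by name, 86 and 80. Among these, calls were lost for 25 with no filter, 23 with the block, 11 with equal sums, 9 with all 11 libraries in the fit, 6 by limma-voom and 3 as deposited (Tff3, Hspa8, Dbp). None of the 121 changed direction in any alternative run; the Vil1 log2 change HLJDD minus ND, not called, was -0.13 as deposited, -0.22 with equal sums, -0.0484 after quantile normalization and -0.0273 to 0.1378 over the fits that left out 1 library. The Lyz1 log2 change HLJDD minus ND, not called, was 0.1847, but -0.0861 with equal sums, -0.2334 with library weights, -0.19 with gene-by-gene weights and -0.2062 to 0.382 over the fits that left out 1 library, negative without HLJDD replicate 2. The causes of these shifts were not tested. Genes near 1 FPKM rest on few reads, and 13766 symbols below the filter were not compared.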
